A study of Oryza sativa with 24 samples.

Results

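The WRKY transcription factor genes of rice were followed through flag leaves of the hybrid Chunyou84, called CY84 here, and of an edited line derived from it. The members were 45 rice WRKY genes listed by their MSU identifiers, out of 55801 genes with a row in the table. They were listed as family members and not by a measured value, but with earlier results of these data known. No gene outside this list was examined as a WRKY gene. A test was made where 2 or more libraries reached 1 FPKM, which held for 39 of the 45 members and for 18871 genes in all. FPKM counts sequenced fragments per kilobase of gene and relative to all mapped fragments of a library.

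WRKY proteins are plant transcription factors named for a short conserved stretch of their DNA-binding domain, with which they bind the W-box of target promoters. In rice leaves many of them answer to pathogens, wounding, salicylate and jasmonate, some as activators of defence genes and others as repressors, and several are phosphorylated by mitogen-activated protein kinases. Others act in abscisic acid and gibberellin signalling in the germinating grain and in leaf ageing.

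CY84 is a hybrid of the japonica male-sterile line Chunjiang 16 A and the indica-japonica intermediate line C84. The Fix line was made in CY84 by editing REC8, PAIR1 and OSD1, which turns meiosis into a division like mitosis, together with MTL, so that the plants set clonal seed. There were 6 groups with 2 RNA-seq libraries each: unedited CY84, the founding edited plants Fix T0, and the clonal generations Fix T1, Fix T2, Fix T3 and Fix T4, which carry the same edits. CY84 and Fix T0 were carried over through their roots, while Fix T1 to Fix T4 came from seed and were screened for diploidy, so generation and way of raising cannot be told apart between Fix T0 and the later groups. All plants stood in a paddy field in Hangzhou, and flag leaves were taken at heading. The labels do not say whether the 2 libraries of a group came from separate plants, so p-values measure only the spread between these libraries.

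The libraries differed modestly in depth, at 0.674 to 1 relative to the first CY84 library, and absolute read numbers are unknown. The leaf blade markers, such as the small Rubisco subunit gene RBCS and the light-harvesting genes CAB1R and CAB2R, summed to between 20540 and 53212 FPKM. The anther markers summed to at most 1.06 FPKM, the seed markers to at most 0.453 and the meiosis markers to at most 0.103. The meiosis markers were PAIR1 and LOC_Os05g50410, paired by hand with REC8, and both genes are edited in the Fix line. Their low level in the Fix libraries therefore need not speak to meiotic tissue. In CY84 they summed to 0.0488 and 0.103 FPKM. The root silicon exporter LSI2 was listed at 0 in all libraries. The root silicon channel LSI1 was at 18.6 to 72.8 FPKM. In bulk tissue, fewer cells of a type and less RNA per cell cannot be told apart.

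Most of the listed members were expressed in the flag leaf. A mean over the 12 libraries of at least 10 FPKM was found for 19 of the 45 members, 16 lay between 1 and 10, and 10 lay under 1, of which 2 were listed at 0 in every library. The 6 members that were not tested never exceeded 1.14 FPKM. WRKY53, a kinase substrate in rice herbivore and elicitor responses, had the highest mean at 97.6 FPKM, followed by LOC_Os01g54600 at 95.1 and by WRKY45, an activator of salicylate-dependent disease resistance, at 59.2. These 3 genes held 36.8% of the summed mean level of the 45 members.

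Summed over the listed members, the level was lowest in Fix T2 and highest in Fix T4. The sum was 594 ± 7.41 FPKM in CY84, 515 ± 109 in Fix T0, 589 ± 244 in Fix T1, 458 ± 38.6 in Fix T2, 808 ± 15.7 in Fix T3 and 1144 ± 201 in Fix T4 (mean ± SD, n = 2 each). Both Fix T4 libraries, at 1002 and 1286 FPKM, lay above every other library. Fix T1 was split, with 417 FPKM in its first library and 762 in its second, and Fix T2 and Fix T0 overlapped.

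**Figure D1:**
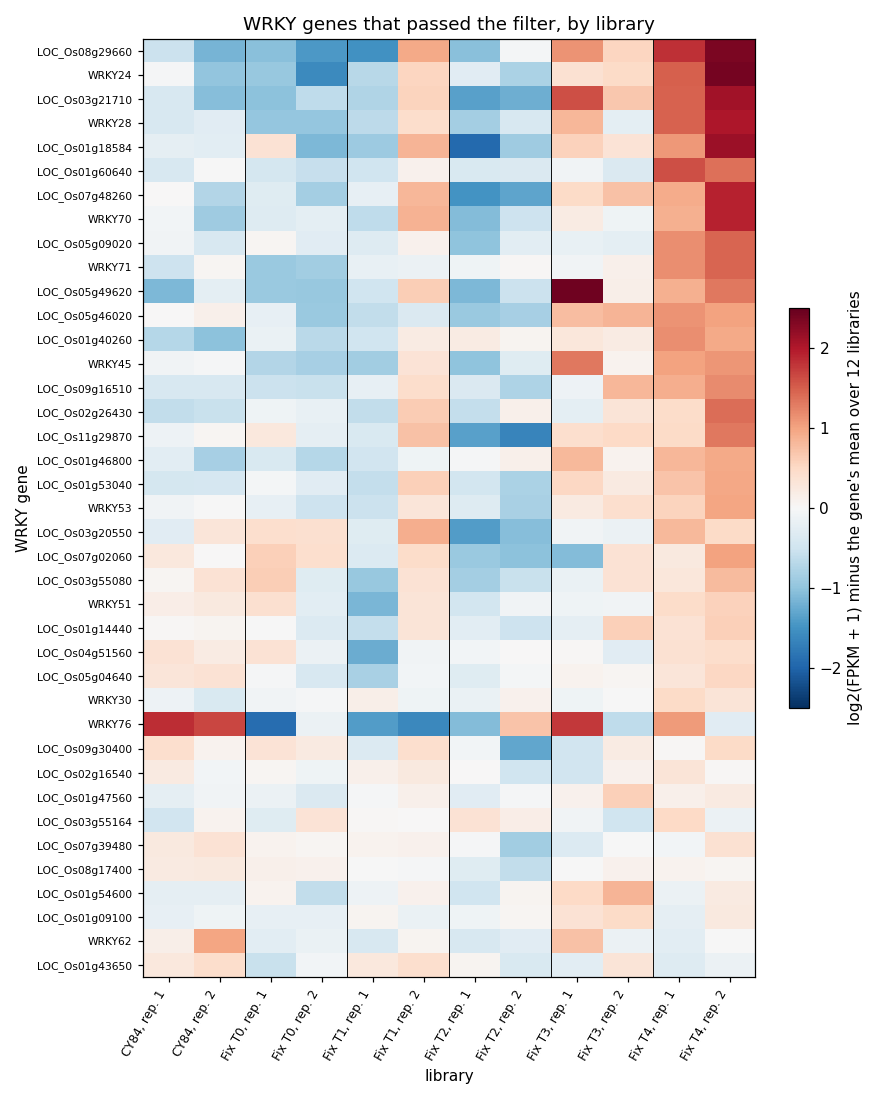
Each row is 1 of the 39 tested WRKY genes and each column 1 of the 12 libraries, and the colour gives log2(FPKM + 1) minus the mean of that gene over the 12 libraries. The upper rows are red in both Fix T4 libraries, many are also red in the second Fix T1 library, and WRKY76 is red in CY84.

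The single members varied unequally. Among the 36 members with a value above 0 in every library, the highest library stood under 3 times above the lowest in 9 genes and over 10 times above it in 11. The steadiest was LOC_Os08g17400, between 10.7 and 20.3 FPKM, a ratio of 1.89. The widest range was that of LOC_Os03g21710, from 0.0741 to 10.9 FPKM. For 29 of the 39 tested members the highest library was one of Fix T4, against 36.1% of all tested genes, and for 0 it was one of Fix T0 or Fix T2, against 8.67% and 11.7% of genes. The 29 include WRKY30 and LOC_Os01g60640, which were tested only through their Fix T4 values, and this favours such a place.

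Flag leaves of Fix T4 differed from those of the founding plants in 11 of the 39 tested WRKY genes, all higher in Fix T4, and in 0 that were lower. Of the 11, 1 gene, LOC_Os01g60640, reached the filter only through its Fix T4 values, which favours a call. Without it, 10 remain. The test was limma on log2(FPKM + 1), with Benjamini-Hochberg adjustment over all tested genes and a threshold of 0.05, and by the same rule 0.98% of all tested genes were higher and 0.0742% lower. The 11 were WRKY71, WRKY24, WRKY28 and 8 genes given here by identifier, with log2 differences of 1.43 to 3.33, where that of WRKY28 depends on the pseudocount. A difference on log2(FPKM + 1) understates the change of genes at low levels. At an unadjusted p under 0.05, 21 members were higher, against 6.79% of all tested genes.

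The direction was shared by most of the tested members. The log2 difference between Fix T4 and Fix T0 was above 0 for 37 of the 39 tested members, against 71.1% of all tested genes, and the median difference was 1.01 over the members and 0.16 over all tested genes. Both Fix T4 libraries were above both Fix T0 libraries in 27 members, against 35.9% of genes. Both were above all 10 other libraries in 18 members, against 8.15% of genes. They were so in 10 of the 11 that passed, but those 11 were picked by the same Fix T4 values. WRKY30 and LOC_Os01g60640 entered the test only through Fix T4, since outside it they did not reach 1 FPKM in 2 libraries. Without them, 35 of 37 members had a difference above 0, the Fix T4 libraries were above those of Fix T0 in 25 and above all 10 others in 16, and the median was 1.01. Without the filter on low values, 5 of the 43 members with any value above 0 passed, among 112 of 28935 genes that passed in either direction, and the median difference over these members was 0.66.

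**Figure D2:**
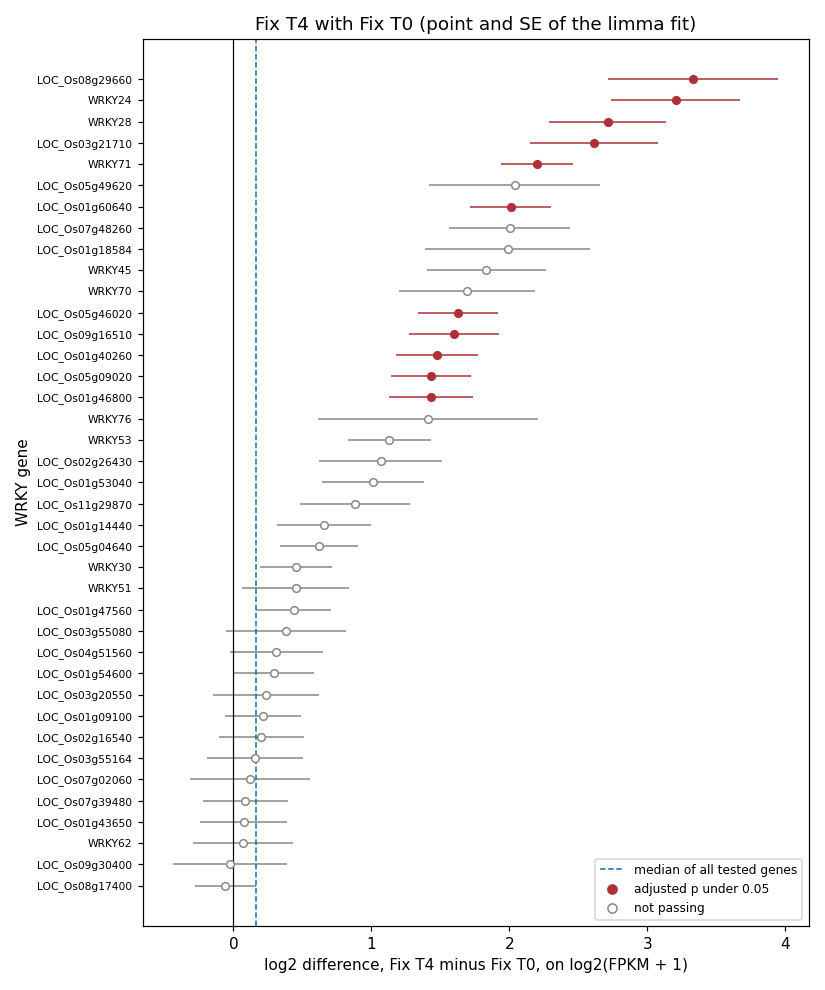
Points give the log2 difference of Fix T4 minus Fix T0 on log2(FPKM + 1) for the 39 tested WRKY genes and bars the standard error of the limma fit. The 11 filled red points passed, 37 of 39 points lie right of 0, and the dashed line marks the median of all tested genes at 0.16. The place of the WRKY28 point depends on the pseudocount, since that gene is at 0 in Fix T0.

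These calls rested on few libraries. The count fell from 11 to 2 without the first Fix T4 library, to 0 without the second, to 1 without either Fix T0 library and to 7 without either CY84 library, and it was 4 with a pseudocount of 0.1, 5 without the filter on low values and 18 with library weights. WRKY71 passed under 19 of 20 alternatives and was lost without the second Fix T4 library, at an adjusted p of 0.0629 from limma.

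Fix T4 was set beside CY84 after the values had been seen. Here 10 tested members were higher and 0 lower, against 1.68% and 0.201% of all tested genes. All 10 are among the 11 that were higher than in Fix T0, and LOC_Os05g46020 is the exception. Without LOC_Os01g60640 the count is 9. The comparisons share the Fix T4 libraries. The median log2 difference was 0.82 over the members and 0.12 over all tested genes. Leaving out the first CY84 library left 2 of the 10 calls, and leaving out the second CY84 library or either Fix T4 library left 0. The count was 6 with a pseudocount of 0.1, 4 without the filter, and 19 with library weights or when the compared groups were fitted alone.

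The WRKY genes of group IIa, WRKY71, WRKY28, WRKY62 and WRKY76, encode proteins known mostly as repressors of rice immunity, and they went separate ways. WRKY71 (LOC_Os02g08440, chromosome 2), which also represses gibberellin signalling in the aleurone of the grain, stood at 8.61 and 13.1 FPKM in CY84, 6.24 and 6.53 in Fix T0, 11.1 and 11.3 in Fix T1, 11.7 and 13.0 in Fix T2, 11.9 and 13.9 in Fix T3, and 29.6 and 36.8 in Fix T4. Fix T0 was below every other library and Fix T4 above every other library, while CY84 and Fix T1 to Fix T3 overlapped. From 6.38 ± 0.201 FPKM in Fix T0 to 33.2 ± 5.06 in Fix T4 (n = 2 each), the log2 difference was 2.20 with an SE of 0.26 and an adjusted p of 0.00202 in limma. Against CY84 it was 1.55 with an adjusted p of 0.0108 in limma.

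WRKY28 (LOC_Os06g44010, chromosome 6), a group IIa repressor of basal defence, had a value of 0 in each library of Fix T0. It was at 0.468 and 0.606 FPKM in CY84, 0.232 and 1.64 in Fix T1, 0.0847 and 0.470 in Fix T2, 2.45 and 0.641 in Fix T3, and 4.41 and 6.95 in Fix T4. Fix T4 lay above all other libraries, and the first Fix T3 library was the next highest. Its adjusted p in limma was 0.0111 against Fix T0, for which no fold is given because of the 0 values, and 0.0269 against CY84, with a log2 difference of 2.09. These calls held under 16 and 13 of 20 alternatives.

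WRKY76 and WRKY62, which repress pathogenesis-related and phytoalexin genes when overexpressed, lie next to each other on chromosome 9 with 0 annotated genes between them. WRKY76 (LOC_Os09g25060) was at 18.2 and 15.9 FPKM in CY84, 0.431 and 3.81 in Fix T0, 1.03 and 0.757 in Fix T1, 1.52 and 7.69 in Fix T2, 17.1 and 2.45 in Fix T3, and 10.2 and 3.35 in Fix T4. Both CY84 libraries lay high, and among the Fix libraries only the first of Fix T3 lay between them, with the first of Fix T4 next. WRKY62 (LOC_Os09g25070) was low throughout, at 0.464 and 1.62 FPKM in CY84, 0.101 and 0.179 in Fix T0, 0 and 0.384 in Fix T1, 0 and 0.0789 in Fix T2, 1.2 and 0.192 in Fix T3, and 0.0982 and 0.303 in Fix T4. The first Fix T3 library was again the highest of the Fix libraries, and it overlapped CY84.

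Neither neighbour passed in any comparison. WRKY76 had a log2 difference of -2.78 (SE 0.80) between Fix T0 and CY84, with an adjusted p of 0.660 in limma, and of 1.41 (SE 0.80) between Fix T4 and Fix T0, where the libraries overlapped. WRKY62 differed between Fix T4 and Fix T0 by 0.07 on the log2 scale, and by -0.053 without the second Fix T4 library. With library weights, WRKY76 was lower in Fix T0 than in CY84 with an adjusted p of 0.0331 in limma.

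**Figure D3:**
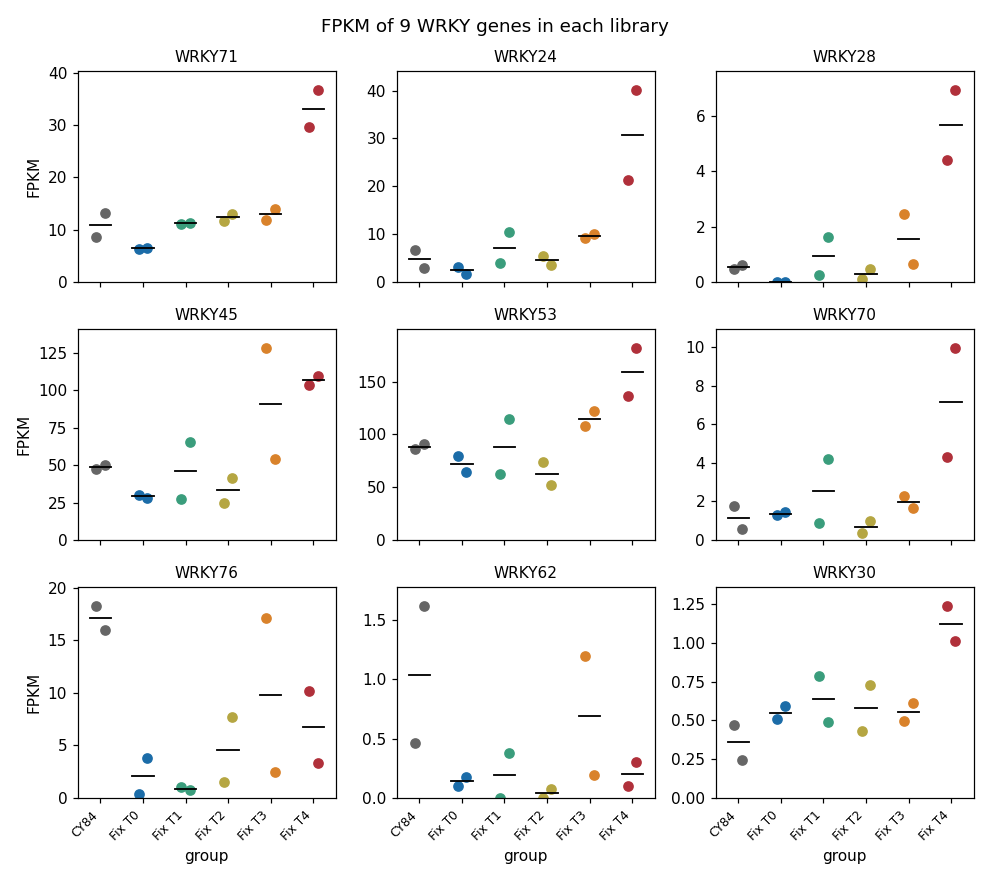
Points give the FPKM of each library and short bars the group mean, with 2 libraries per group, for the 9 WRKY genes named in the choice of members, each panel on its own linear scale from 0. WRKY71, WRKY24, WRKY28, WRKY53, WRKY70 and WRKY30 have both Fix T4 points above all others, whereas WRKY76 has its highest points in CY84, at 18.2 and 15.9 FPKM, and in the first library of Fix T3.

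WRKY24, WRKY53 and WRKY70 are related proteins of group I, and WRKY53 and WRKY70 are known targets of the rice kinases MPK3 and MPK6. WRKY24 (LOC_Os01g61080, chromosome 1), a repressor of abscisic acid and gibberellin signalling in the aleurone, was at 6.73 and 2.98 FPKM in CY84, 3.11 and 1.63 in Fix T0, 3.89 and 10.4 in Fix T1, 5.47 and 3.57 in Fix T2, 9.23 and 10.01 in Fix T3, and 21.3 and 40.1 in Fix T4. It was highest in Fix T4, and Fix T3 and the second Fix T1 library came next. The log2 difference from Fix T0 to Fix T4 was 3.20 with an SE of 0.47 and an adjusted p of 0.00769 in limma. It was 2.45 against CY84 with an adjusted p of 0.0196 in limma. The call against Fix T0 held under 17 of 20 alternatives and was lost without either Fix T0 library or without the second Fix T4 library, with adjusted p-values of 0.0516, 0.135 and 0.159 from limma.

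WRKY53 (LOC_Os05g27730, chromosome 5) was at 86.2 and 90.7 FPKM in CY84, 79.5 and 64.0 in Fix T0, 62.7 and 114 in Fix T1, 73.5 and 52.2 in Fix T2, 108 and 123 in Fix T3, and 136 and 182 in Fix T4. Both Fix T4 libraries were above all others, yet the log2 difference from Fix T0, 1.13 with an SE of 0.30, did not pass, with an adjusted p of 0.132 in limma. WRKY70 (LOC_Os05g39720, chromosome 5), which in rice shifts the balance between jasmonate-dependent defence and gibberellin-dependent growth, had a similar order at a far lower level. It was at 1.74 and 0.567 FPKM in CY84, 1.31 and 1.43 in Fix T0, 0.861 and 4.23 in Fix T1, 0.356 and 1.00 in Fix T2, 2.31 and 1.68 in Fix T3, and 4.33 and 9.97 in Fix T4. The second Fix T1 library came just below the lower Fix T4 library. Its log2 difference from Fix T0 was 1.69 (SE 0.50) with an adjusted p of 0.192 in limma, and from CY84 1.88 with 0.0936.

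WRKY30 (LOC_Os08g38990, chromosome 8), another kinase substrate, was near the floor of the filter, between 0.248 and 0.787 FPKM outside Fix T4 and at 1.24 and 1.01 in it. The log2 difference from Fix T0 was 0.45 with an adjusted p of 0.819 in limma. WRKY51 (LOC_Os04g21950, chromosome 4), which acts with WRKY71 in the aleurone, was among the more abundant members at 20.7 to 70.4 FPKM. Its highest libraries were also those of Fix T4, at 64.6 and 70.4 FPKM, but Fix T0 reached 62.2, and the log2 difference of 0.45 had an adjusted p of 0.937 in limma.

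WRKY45 (LOC_Os05g25770, chromosome 5) was at 47.7 and 49.9 FPKM in CY84, 30.4 and 28.1 in Fix T0, 27.6 and 65.2 in Fix T1, 24.9 and 41.4 in Fix T2, 128 and 53.9 in Fix T3, and 103 and 110 in Fix T4. The Fix T4 pair was high and tight, with a mean of 107 ± 4.59 FPKM, but the first Fix T3 library was higher still. The log2 difference from Fix T0 was 1.83 with an SE of 0.43 and missed the threshold with an adjusted p of 0.0740 in limma. Against CY84 it was 1.11 with an adjusted p of 0.335 in limma. WRKY45 passed under 7 of 20 alternatives against Fix T0 and under 2 of 20 against CY84. The japonica and indica alleles of this locus are known to differ, and the values do not separate alleles.

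The other 8 genes that were higher in Fix T4 than in Fix T0 are given by identifier, since the files pair no name with them. The highest of them was LOC_Os08g29660 (chromosome 8), at 14.7 and 9.09 FPKM in CY84, 10.04 and 7.39 in Fix T0, 7.01 and 42.8 in Fix T1, 10.03 and 21.1 in Fix T2, 48.3 and 32.0 in Fix T3, and 79.9 and 115 in Fix T4. Its log2 difference from Fix T0 was 3.33 with an SE of 0.62 and an adjusted p of 0.0253 in limma. The call held under 14 of 20 alternatives. LOC_Os03g21710 (chromosome 3) was at 1.1 and 0.318 FPKM in CY84, 0.359 and 0.779 in Fix T0, 0.643 and 3.08 in Fix T1, 0.0741 and 0.190 in Fix T2, 7.44 and 3.40 in Fix T3, and 6.63 and 10.9 in Fix T4. In both genes Fix T3 and the second Fix T1 library stood above all CY84 and Fix T0 libraries. LOC_Os03g21710 was the 1 gene of the 11 with a Fix T3 library above a Fix T4 library, and its log2 difference from Fix T0 was 2.62 with an adjusted p of 0.0206 in limma. This call also held under 14 of 20 alternatives.

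LOC_Os05g46020 (chromosome 5) was at 6.64 and 7.34 FPKM in CY84, 5.61 and 3.01 in Fix T0, 4.00 and 4.94 in Fix T1, 2.99 and 3.28 in Fix T2, 12.01 and 12.7 in Fix T3, and 15.6 and 14.3 in Fix T4. Here Fix T3 and Fix T4 formed a high set with close pairs, CY84 lay in the middle, and the second Fix T1 library was not raised. The log2 difference of Fix T4 from Fix T0 was 1.63 with an adjusted p of 0.0206 in limma, and from CY84 1.00 with 0.139. The call against Fix T0 held under 16 of 20 alternatives. LOC_Os01g60640 (chromosome 1) was between 0.0657 and 0.713 FPKM in the other groups and at 3.86 and 3.13 in Fix T4, and it was tested only because of its Fix T4 values. The adjusted p of 0.00772 in limma against Fix T0 is therefore no independent call.

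LOC_Os05g09020 (chromosome 5) and LOC_Os09g16510 (chromosome 9) were well expressed in all groups and rose in Fix T4. LOC_Os05g09020 was at 20.9 and 16.7 FPKM in CY84, 23.0 and 18.1 in Fix T0, 17.6 and 24.1 in Fix T1, 10.7 and 18.4 in Fix T2, 19.5 and 18.8 in Fix T3, and 51.4 and 63.0 in Fix T4. LOC_Os09g16510 was at 22.2 and 22.2 FPKM in CY84, 20.2 and 19.9 in Fix T0, 25.9 and 41.1 in Fix T1, 23.1 and 17.0 in Fix T2, 27.2 and 53.7 in Fix T3, and 57.2 and 68.6 in Fix T4. Outside Fix T4 the first of these stayed between 10.7 and 24.1 FPKM, whereas the second also had high libraries in Fix T1 and Fix T3. The log2 differences of Fix T4 from Fix T0 were 1.43 and 1.6, with adjusted p-values of 0.0398 and 0.0405 in limma. These calls held under only 7 and 11 of 20 alternatives.

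LOC_Os01g40260 and LOC_Os01g46800, both on chromosome 1, were higher in the seed-grown generations as well. LOC_Os01g40260 was at 6.63 and 5.14 FPKM in CY84, 10.2 and 6.86 in Fix T0, 7.81 and 13.3 in Fix T1, 13.4 and 12.04 in Fix T2, 14.2 and 13.4 in Fix T3, and 27.1 and 23.2 in Fix T4. LOC_Os01g46800 was at 14.4 and 9.29 FPKM in CY84, 13.1 and 10.3 in Fix T0, 12.3 and 16.1 in Fix T1, 17.0 and 19.2 in Fix T2, 31.2 and 18.5 in Fix T3, and 31.5 and 34.8 in Fix T4. In both, all libraries of Fix T2, Fix T3 and Fix T4 lay above all CY84 and Fix T0 libraries. The log2 differences of Fix T4 from Fix T0 were 1.47 and 1.43, with adjusted p-values of 0.0378 and 0.0474 in limma. These calls held under only 9 and 7 of 20 alternatives.

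Among the abundant members, LOC_Os01g54600 (chromosome 1) was at 77.9 and 78.6 FPKM in CY84, 98.0 and 59.4 in Fix T0, 83.7 and 99.0 in Fix T1, 64.7 and 96.0 in Fix T2, 129 and 166 in Fix T3, and 82.3 and 107 in Fix T4. Its highest pair was that of Fix T3, and Fix T4 overlapped Fix T0. LOC_Os08g17400 had no Fix T4 value above its highest CY84 value. LOC_Os04g51560 (chromosome 4) ranged from 15.4 to 52.0 FPKM, with the first Fix T1 library lowest and both Fix T4 libraries, at 49.9 and 52.0, just above all others.

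Leaves of Fix T3 and 1 of the Fix T1 libraries also held raised WRKY levels. Of the 39 tested members, 19 and 21 lay above all 4 CY84 and Fix T0 libraries in the first and second library of Fix T3, against 18.9% and 21.9% of all tested genes. In Fix T4 the counts were 28 and 33, against 34.2% and 45.7% of genes, and in Fix T2 they were 5 and 7, against 14.1% and 17.5%. In Fix T1 the first library had 4 such members, against 17.9% of genes, and the second had 24, against 34.7%. Both Fix T4 counts include WRKY30 and LOC_Os01g60640, which were tested only through their Fix T4 values.

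**Figure D4:**
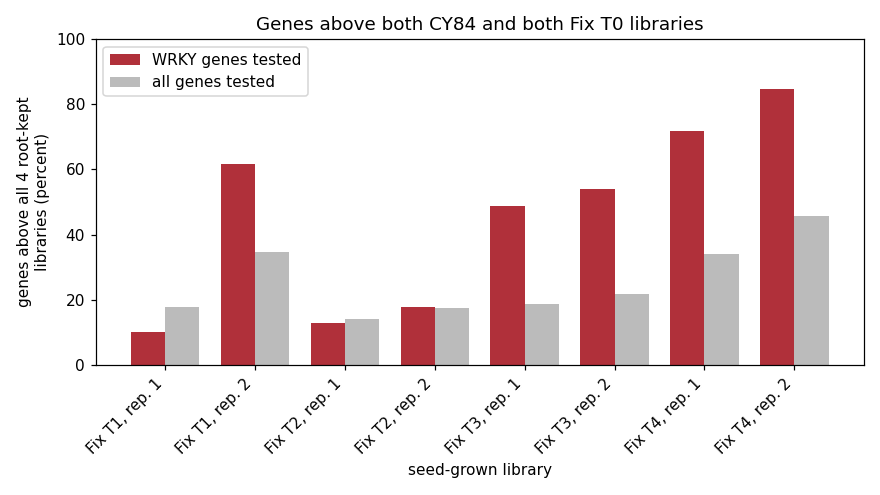
Bars give, for each of the 8 seed-grown libraries, the percent of genes above both CY84 and both Fix T0 libraries, in red for the 39 tested WRKY genes and in grey for all tested genes. The red bar exceeds the grey one in all libraries but the first of Fix T1 and the first of Fix T2, and by least in the second of Fix T2. Both red Fix T4 bars count WRKY30 and LOC_Os01g60640, which were tested only through their Fix T4 values.

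The Fix T1 pair disagreed across the tested members. In it, 34 of the 39 tested members were higher in the second library, against 73.9% of all tested genes, with a median log2 difference between the libraries of 0.77 for the members and 0.37 for all tested genes. The 2 libraries were over 2-fold apart on the FPKM + 1 scale for 16 members, against 16.4% of genes. In Fix T4, 30 members were higher in the second library, against 61.4% of genes, with medians of 0.26 and 0.11. The second Fix T1 library and both Fix T4 libraries also had the smallest shares of summed FPKM in their 10 highest genes, at 14.3%, 14.7% and 13.2%, against 15.9% to 19.3% in the others, and the part of this in the WRKY levels was not tested. Leaf senescence markers, SGR, NYC1 and LOC_Os03g21060, summed to 136 and 122 FPKM in Fix T0 and to 114 and 176 in Fix T4, so these 2 groups overlapped. The sums were 178 and 196 in CY84, 87.3 and 132 in Fix T1, 87.0 and 55.7 in Fix T2, and 67.2 and 137 in Fix T3. The part of leaf age in the WRKY levels was not tested.

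Editing with root-kept plants on both sides was compared in Fix T0 and CY84, and 0 of the 39 tested members passed in limma, against 0.0901% of all tested genes. At an unadjusted p under 0.05, 3 members were lower and 0 higher, against 2% and 1.87% of genes: WRKY76, WRKY71 with a log2 difference of -0.66, and LOC_Os05g46020 with -0.63. The latter 2 had an adjusted p of 1 in limma. Both Fix T0 libraries were below both CY84 libraries in 14 members, against 26.6% of genes, and above them in 6, against 18%.

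Averaged over all Fix generations, 0 of the 39 tested members passed against CY84 in limma, where 0.747% of all tested genes did, and 5 had an unadjusted p under 0.05, against 13.1% of genes. Among members that reached 5 FPKM in a group mean, LOC_Os01g40260, WRKY76 and LOC_Os01g46800 had the smallest p. Their log2 differences were 1.04, -2.11 and 0.66, with adjusted p-values of 0.0663, 0.180 and 0.277 in limma. The count was 1 without the first or second Fix T1 library, where 1.26% and 1.9% of all tested genes passed.

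Seed-grown generations, Fix T1 to Fix T4 together, were compared with the root-kept CY84 and Fix T0. The genes WRKY71, LOC_Os01g40260, WRKY24 and LOC_Os01g46800 were higher in the seed-grown leaves, 4 of 39 tested members against 1.39% of all tested genes, and 0 were lower, against 0.678%. Their log2 differences were 0.84 (SE 0.16), 0.96 (SE 0.18), 1.32 (SE 0.29) and 0.82 (SE 0.19), with adjusted p-values of 0.0212, 0.0211, 0.0377 and 0.0447 in limma. In each of the 4 the libraries of the 2 sides overlapped, and CY84 differs from the seed-grown plants in its genes as well. The count was 0 without any 1 of the CY84 or Fix T0 libraries, 2 without the second Fix T2 or the first Fix T4 library, 1 without the second Fix T4 library, and 7 without the first or second Fix T1 library, where 2.66% and 9.5% of all tested genes passed. It was 18 without all 4 libraries of Fix T1 and Fix T2, where 7.46% of genes passed.

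Step by step, the seed generations before Fix T4 gave no member that passed against Fix T0, with which all of them share the same libraries. In Fix T1, 0 members passed in limma against 0.0795% of all tested genes, and 3 had an unadjusted p under 0.05 against 5.04%. The nearest among members that reached 5 FPKM in a group mean were WRKY71 and WRKY24, with log2 differences of 0.72 and 1.19, and LOC_Os04g51560, with -0.77. Their adjusted p-values in limma were 0.841, 0.907 and 0.960.

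In Fix T2, 0 members passed in limma against 0.0901% of all tested genes, and 6 had an unadjusted p under 0.05 against 19%. The nearest among the better expressed members were LOC_Os07g02060, at 16.7 and 14.6 FPKM in Fix T0 and 5.10 and 4.72 in Fix T2, WRKY71, and LOC_Os08g17400, at 18.7 and 18.5 FPKM in Fix T0 and 13.5 and 10.7 in Fix T2. Both LOC_Os07g02060 and LOC_Os08g17400 were lower without overlap, by log2 differences of -1.49 and -0.59, and WRKY71 was higher without overlap, by 0.85, with adjusted p-values of 0.178, 0.212 and 0.185 in limma. In the other groups LOC_Os07g02060 was at 12.9 and 10.7 FPKM in CY84, 8.23 and 15.0 in Fix T1, 4.52 and 13.9 in Fix T3, and 12.9 and 22.5 in Fix T4. In the same groups LOC_Os08g17400 was at 20.0 and 20.3, 16.8 and 16.6, 16.9 and 18.5, and 18.0 and 17.6 FPKM. The count was 2 without the first or second Fix T1 library, where 2.11% and 1.96% of all tested genes passed, and 1 without the first Fix T2 library, where 5.9% did.

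In Fix T3, 0 members passed in limma against 0.291% of all tested genes, but 16 had an unadjusted p under 0.05, all higher, against 5.06% of genes that were higher at that limit. Both Fix T3 libraries were above both Fix T0 libraries in 22 members, against 16.3% of genes. The median log2 difference was 0.51 over the members and -0.19 over all tested genes. Of the members that reached 5 FPKM in a group mean, LOC_Os05g46020, LOC_Os03g21710 and WRKY24 came nearest. Their log2 differences were 1.38, 1.97 and 1.69, with adjusted p-values of 0.0764, 0.102 and 0.149 in limma. The count was 3 without the first or second Fix T1 library, where 1.78% and 1.8% of all tested genes passed, and 1 without the second Fix T3 library, where 0.282% did.

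Scaling moved the middle of the distribution. After the libraries were rescaled by median-of-ratios factors, the median log2 difference from Fix T0 over all tested genes went from -0.28 to 0.04 in Fix T2, from -0.19 to 0.01 in Fix T3 and from 0.16 to -0.01 in Fix T4. The median over the tested WRKY genes then went from -0.13 to 0.19 in Fix T2, a change of sign, from 0.51 to 0.66 in Fix T3 and from 1.01 to 0.83 in Fix T4.

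Any difference among the 6 groups was tested with the moderated F test of limma, and 9 of the 39 tested members passed, against 1.91% of all tested genes. Without LOC_Os01g60640, tested only through Fix T4, the count is 8. The 9 were WRKY71, LOC_Os05g46020, LOC_Os03g21710, LOC_Os01g60640, WRKY24, LOC_Os05g09020, LOC_Os07g48260, WRKY28 and LOC_Os01g40260, with adjusted p-values from 0.0122 to 0.0406 in limma. LOC_Os07g48260 (chromosome 7) is the 1 among them that did not pass between Fix T4 and Fix T0, with an adjusted p of 0.0557 in limma. It was at 3.54 and 1.70 FPKM in CY84, 2.67 and 1.49 in Fix T0, 2.89 and 7.01 in Fix T1, 0.594 and 0.817 in Fix T2, 5.31 and 6.49 in Fix T3, and 7.52 and 16.2 in Fix T4. The F count was 0 without either Fix T4 library, 2 without either Fix T0 library, 4 or 3 without the first or second CY84 library, and 19 or 21 without the first or second Fix T1 library. Over all tested genes the share that passed moved as well, from 0.584% and 0.727% without a Fix T4 library to 10.4% and 13.1% without the first or second Fix T1 library. The count of members was 6 without the second Fix T2 library or either Fix T3 library.

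Genes that act with WRKY factors in rice defence moved in part. Of 11 genes of salicylate signalling and the kinase cascade, all tested, MPK3, a kinase that phosphorylates WRKY factors, was the 1 that was higher in Fix T4 than in Fix T0, against 0.98% of all tested genes, and 0 were lower. MPK3 was at 7.12 and 4.48 FPKM in CY84, 3.85 and 4.58 in Fix T0, 8.25 and 7.56 in Fix T1, 4.98 and 5.76 in Fix T2, 11.4 and 7.51 in Fix T3, and 16.2 and 18.4 in Fix T4. The log2 difference from Fix T0 was 1.81 (SE 0.29) with an adjusted p of 0.0124 in limma, which was lost without any 1 of the 4 compared libraries. NPR1, the salicylate coactivator, lay between 5.51 and 14.8 FPKM, with 10.8 and 8.32 in Fix T0 and 9.39 and 14.7 in Fix T4.

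The tested pathogenesis-related genes were lowest in CY84, and their order over the Fix generations differed by gene. Of 6 listed, 5 were tested, and all 5 were higher in Fix T4 than in CY84, against 1.68% of all tested genes, while 2 were higher in Fix T4 than in Fix T0, against 0.98%. All 5 were also higher in the Fix mean than in CY84, against 0.541% of genes, and in the seed-grown than in the root-kept plants, against 1.39%. The Fix mean calls held under 12 of 19 alternatives for LOC_Os07g03710, 16 for PR1b and for PBZ1, 18 for LOC_Os12g36830 and 19 for LOC_Os12g36850. LOC_Os12g36850 and LOC_Os12g36830, the 2 that were higher in Fix T4 than in Fix T0, had log2 differences of 2.35 each, with adjusted p-values of 0.00421 and 0.0101 in limma. Each of these calls held under 16 of 20 alternatives. LOC_Os12g36850 was at 6.72 and 10.2 FPKM in CY84, 25.9 and 25.5 in Fix T0, and 70.3 and 73.8 in Fix T1. It was at 31.3 and 35.7 FPKM in Fix T2, 107 and 53.2 in Fix T3, and 138 and 132 in Fix T4. In both genes Fix T2 lay below Fix T1 and Fix T3, and Fix T4 above all other libraries. PR1b, a secreted defence protein gene, was at 12.6 and 13.0 FPKM in CY84, 57.5 and 67.9 in Fix T0, 195 and 237 in Fix T1, 206 and 247 in Fix T2, 735 and 92.9 in Fix T3, and 670 and 205 in Fix T4. Its level was above Fix T0 from Fix T1 on, also in Fix T2, where the summed WRKY level was lowest. In Fix T3 and Fix T4 the first library was the higher one. PBZ1, an intracellular pathogenesis-related protein gene, ranged from 90.4 FPKM in CY84 to 1853 in the first Fix T3 library.

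Diterpenoid phytoalexin genes encode enzymes and regulators for antimicrobial compounds. The synthase genes KSL7, at 9.14 to 29.9 FPKM, and CPS2, at 2.85 to 18.2, and LOC_Os04g54474, at 3.88 to 11.1, were expressed in all libraries. Of 9 listed, 7 were tested, and CYP99A3, a momilactone pathway enzyme, was the 1 that was higher in Fix T4 than in Fix T0, against 0.98% of all tested genes. It was at 1.87 and 3.18 FPKM in CY84, 1.01 and 1.66 in Fix T0, 2.75 and 3.00 in Fix T1, 2.33 and 4.02 in Fix T2, 10.3 and 3.94 in Fix T3, and 7.95 and 9.54 in Fix T4, with a log2 difference between Fix T4 and Fix T0 of 2.07 and an adjusted p of 0.0295 in limma. This call held under 10 of 20 alternatives and was lost without any 1 of the CY84, Fix T0 or Fix T4 libraries, with adjusted p-values of up to 0.331 in limma. Against CY84, CPS4 and CYP99A2, further enzymes of the pathway, were higher in Fix T4, against 1.68% of all tested genes. These calls held under 8 and 14 of 20 alternatives. CPS4 was at 0.0383 and 0.108 FPKM in CY84 and at 2.18 and 3.34 in Fix T4. CYP99A2 was at 0.236 and 0 FPKM in CY84 and at 4.14 and 5.76 in Fix T4. Both start near the floor, so the size of these differences depends on the pseudocount. The first Fix T3 library was the highest for CPS4, CYP99A2, CYP99A3, PR1b, PBZ1 and WRKY45, and had the highest Fix values of WRKY76 and WRKY62.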

How the data were processed

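The authors deposited 1 table of FPKM with a column for each of the 12 RNA-seq libraries; 20 unnamed columns were not used and the 12 bisulfite samples were not analysed here. Per the submitters' processing notes, HISAT2 2.1.0, featureCounts 1.6.4, StringTie 1.3.4d, Trimmomatic 0.39, FastQC, fastp, Bismark 0.23.0 and DESeq2 1.30.1 were among the tools; the step of each and the genome build are not given in the sources used here. How reads shared by related WRKY genes were assigned is not stated, so levels of close copies are uncertain.

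For each gene, log2(FPKM + 1) was modelled by group in limma 3.58.1 (R 4.3.3) over all 12 libraries, with 6 residual degrees of freedom and a trended prior. Genes with at least 1 FPKM in at least 2 libraries were tested, and a gene passed at a Benjamini-Hochberg adjusted p under 0.05 over all tested genes. Absolute depth is unknown without read counts, so intervals for counting error could not be given.

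The members, the defence lists and the named-gene rule were chosen with earlier results of these data known. Values in every library or as ranges are given for 9 members named at the outset, for members that passed in any comparison, for the 3 of smallest p per comparison that reached 5 FPKM in a group mean, and for the 3 highest. The files hold MSU identifiers without names. Names of WRKY24, WRKY51, WRKY62, WRKY71 and WRKY76 were found on the same chromosome in the RefSeq annotation ASM3414082v1, those of WRKY28, WRKY30, WRKY45, WRKY53, WRKY70 and PR1b were paired by hand from published nomenclature, and 35 members are given by identifier. After subtraction of group means, equally numbered libraries correlated over 0.1 in 2 of 15 pairs of groups, so the numbers were not taken to pair libraries.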

Additional observations from a re-analysis of the deposited data

How the results depend on the processing

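Among the gene differences recomputed under the alternatives, that of WRKY62 between Fix T4 and Fix T0 reversed, from 0.07 to -0.053 on the log2 scale without the second Fix T4 library, and the others kept their direction. The median over the members for Fix T2 with Fix T0 went from -0.13 to 0.19 after rescaling. Counts of WRKY genes passing moved as follows. For Fix T4 with Fix T0 the 11 became 4 with a pseudocount of 0.1, 5 without the filter and 18 with library weights (where 0.382%, 0.387% and 3.44% of all tested genes passed), and 0 to 14 with 1 library left out. For Fix T4 with CY84 the 10 became 6, 4 and 19 under the same alternatives (1.47%, 0.76% and 7.04% of genes), 19 with the compared groups only (6.08%), and 0 to 13 with 1 library left out. For any difference among the groups the 9 became 5 with a pseudocount of 0.1, 3 without the filter, 20 with library weights (9.19% of genes), 17 without Fix T1 and Fix T2 (15.4%), and 0 to 21 with 1 library left out. For the seed-grown with the root-kept plants the 4 became 2 without the filter, 7 rescaled by median-of-ratios factors, 9 with library weights (7.84% of genes), 18 without Fix T1 and Fix T2 (7.46%), and 0 to 7 with 1 library left out. The counts of 0 became 1 with library weights for Fix T0 with CY84 (1.13% of genes). For the Fix mean with CY84 they became 1 rescaled, 5 with library weights and 3 without Fix T1 and Fix T2 (where 1%, 10.9% and 2.74% of all tested genes passed), and 0 to 1 with 1 library left out. For Fix T3 with Fix T0 they became 2, 5 and 6 under the same alternatives (0.813%, 3.98% and 8.86% of genes) and 0 to 3 with 1 library left out. For Fix T2 with Fix T0 they became 0 to 2 with 1 library left out, and for Fix T1 with Fix T0 they stayed at 0 under all 19 alternatives. With the replicate number as a block, the counts became 8 for Fix T4 with Fix T0, 9 for Fix T4 with CY84, 2 for the seed-grown with the root-kept plants and 4 for any difference. Equally numbered libraries correlated over 0.1 in 2 of 15 pairs of groups, after subtraction of group means. These were Fix T1 with Fix T4, at 0.161, and Fix T3 with Fix T4, at 0.193, and the lowest value was -0.304. The cause of these moves was not tested, except that leaving out a library also removes 1 of the 6 residual degrees of freedom. Library weights and the fit without Fix T1 and Fix T2 were added after the data were seen. The mean contrasts and the F test already use all groups, so no separate fit of the compared groups was run for them.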
